A study of Mus musculus with 10 samples.

Results

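The constitutive strong distal regions of thymic invariant natural killer T (iNKT) cells are stretches of chromatin that were open at a high and similar level in every group of the study and lay away from the starts of protein-coding genes. They were selected on their measured accessibility. Insertions of the transposase were scaled to counts per 1000000 insertions (CPM) with TMM factors, which correct library totals for composition, and a region was kept where the means of all 4 groups were 20 CPM or more, the highest mean was under 1.5 times the lowest, and no protein-coding gene started within 1 kb of its edges. The rule kept 1492 of 94823 regions (1.57%). These are called members here, and because their levels and their similarity between groups chose them, both are given as a description.

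Accessibility was measured by ATAC-seq in iNKT1 and iNKT2 cells sorted from the thymus. iNKT1 cells gave 2 libraries from BALB/c and 2 from SKG mice, and iNKT2 cells gave 3 from each. SKG mice are on the BALB/c background and carry a hypomorphic mutation of Zap70, the kinase that relays the signal of the T cell receptor, and BALB/c mice are the wild type. By the study's methods the mice were 8 to 10 weeks old and each library was made from 50000 cells, iNKT1 being CD27+ CD122+ and iNKT2 CD27+ CD122-. The subsets were parted by surface markers alone, and no source used here says whether libraries of a group came from separate animals.

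Chromatin away from promoters is usually opened by enhancers, which bind transcription factors of the cell type, and by insulators, which bind CTCF and help to fold chromosomes into loops. CTCF sites are known as the distal sites most alike between cell types, whereas enhancers are known to differ more. Promoters of widely used genes are often rich in CpG dinucleotides and stay open in most cells, and many genes have more than 1 promoter. In T cells, factors of the ETS, RUNX and TCF/LEF families bind many shared enhancers, while T-box factors such as T-bet belong to interferon-producing subsets such as iNKT1.

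The sequences below show what such regions look like in the reference genome. Each is the central stretch of 300 bases, 5′ to 3′ on the plus strand of GRCm38.p6 (mm10, RefSeq; the reference strain, not BALB/c), in lower case with matches to the consensus strings in capitals. The first set is 2 of the 3 members of highest level with an exact CTCF consensus, shown because only 22 members held one. Each is named by its nearest protein-coding gene start.
2410004P03Rik, chr12:17033082-17033381: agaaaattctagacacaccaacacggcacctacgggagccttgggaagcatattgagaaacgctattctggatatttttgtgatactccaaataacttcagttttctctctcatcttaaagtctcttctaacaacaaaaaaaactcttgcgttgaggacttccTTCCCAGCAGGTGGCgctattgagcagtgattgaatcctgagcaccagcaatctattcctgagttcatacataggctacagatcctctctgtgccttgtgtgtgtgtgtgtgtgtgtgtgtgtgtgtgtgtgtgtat
Oxct1, chr15:4043304-4043603: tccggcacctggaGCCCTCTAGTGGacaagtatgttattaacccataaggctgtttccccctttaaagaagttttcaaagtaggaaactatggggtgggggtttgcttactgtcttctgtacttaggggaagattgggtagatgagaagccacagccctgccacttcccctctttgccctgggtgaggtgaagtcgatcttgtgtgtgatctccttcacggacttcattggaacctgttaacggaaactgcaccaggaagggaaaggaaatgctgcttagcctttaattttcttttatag
In the first, a ZNF143 string (TTCCCAGNA) overlapped the CTCF match. The second carried its match on the minus strand near the edge of the window.

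The next set is the members of highest level among those without a CTCF match and with no annotated untranslated region in the window. They are shown because they are of different kinds: the first 2 lie at annotated transcript starts inside or beyond a gene, and the last has none nearby.
Ppp2r3d, chr9:124424053-124424352: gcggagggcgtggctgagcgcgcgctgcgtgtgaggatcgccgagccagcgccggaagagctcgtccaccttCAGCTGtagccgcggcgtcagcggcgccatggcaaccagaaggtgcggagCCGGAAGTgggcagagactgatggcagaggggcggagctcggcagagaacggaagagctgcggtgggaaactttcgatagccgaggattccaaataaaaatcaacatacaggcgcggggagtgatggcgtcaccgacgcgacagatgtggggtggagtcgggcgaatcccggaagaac
Zfp958, chr8:4678440-4678739: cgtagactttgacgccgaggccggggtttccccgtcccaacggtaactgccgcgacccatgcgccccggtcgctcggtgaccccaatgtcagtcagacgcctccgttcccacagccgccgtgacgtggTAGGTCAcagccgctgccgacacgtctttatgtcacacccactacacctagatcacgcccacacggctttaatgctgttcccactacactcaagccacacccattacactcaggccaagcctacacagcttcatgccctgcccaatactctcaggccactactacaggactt
Tnfaip3, chr10:19062643-19062942: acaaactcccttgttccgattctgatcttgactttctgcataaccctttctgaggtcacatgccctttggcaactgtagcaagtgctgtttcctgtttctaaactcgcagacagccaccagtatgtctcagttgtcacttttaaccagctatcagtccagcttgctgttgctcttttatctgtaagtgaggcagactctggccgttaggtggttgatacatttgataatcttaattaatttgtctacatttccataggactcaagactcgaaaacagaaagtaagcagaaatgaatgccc
The Ppp2r3d window held an ETS string (CNGGAAGT) and an E-box (CAGCTG, which reads the same on both strands), and the Zfp958 window held an ROR string (TAGGTCA). GC content was 64.0% at Ppp2r3d, 59.7% at Zfp958 and 42.3% at Tnfaip3, whose window held none of the 18 strings searched.

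The last set continues with the members of highest level that have no annotated transcript start within 1 kb.
Nabp1, chr1:51584835-51585134: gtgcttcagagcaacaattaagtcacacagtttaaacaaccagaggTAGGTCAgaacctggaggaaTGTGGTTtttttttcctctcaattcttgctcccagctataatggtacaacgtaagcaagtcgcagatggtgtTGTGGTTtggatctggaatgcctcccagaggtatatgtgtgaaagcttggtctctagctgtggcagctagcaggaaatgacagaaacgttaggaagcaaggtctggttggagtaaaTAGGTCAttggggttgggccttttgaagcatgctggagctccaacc
Clec11a, chr7:44305156-44305455: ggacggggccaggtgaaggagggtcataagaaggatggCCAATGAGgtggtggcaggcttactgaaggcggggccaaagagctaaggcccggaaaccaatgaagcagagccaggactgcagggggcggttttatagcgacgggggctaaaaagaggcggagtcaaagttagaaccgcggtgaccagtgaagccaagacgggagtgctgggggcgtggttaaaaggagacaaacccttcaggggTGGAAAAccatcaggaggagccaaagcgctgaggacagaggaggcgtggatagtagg
4930453N24Rik, chr16:64759189-64759488: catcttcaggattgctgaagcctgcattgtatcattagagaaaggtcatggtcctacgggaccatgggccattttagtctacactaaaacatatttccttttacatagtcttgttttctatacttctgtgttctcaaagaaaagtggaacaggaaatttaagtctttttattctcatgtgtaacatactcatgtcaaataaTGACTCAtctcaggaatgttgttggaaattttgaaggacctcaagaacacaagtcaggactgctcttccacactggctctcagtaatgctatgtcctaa
The Nabp1 window held 2 matches to the RUNX string (AACCACA) and 2 ROR matches, the Clec11a window an NFAT string (TTTTCCA) and an NFY string (CCAATNAG), and the 4930453N24Rik window an AP-1 string (TGANTCA). A match is a run of letters and not a measured binding site.

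Regions with a group mean of 20 CPM or more in all 4 groups numbered 10029 (10.6% of all). Of these, 5817 also had a highest mean under 1.5 times the lowest, and most of the 5817, 4325 regions, lay within 1 kb of a protein-coding gene start (the constitutive strong promoters). Strong distal regions of any ratio numbered 3261, of which the members made up 45.8% and 1769 varied by 1.5-fold or more (the other strong distal regions). The last comparison class was 3211 constitutive but weaker distal regions, with all means from 5 to under 20 CPM.

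The label distal did not hold for all members once every annotated transcript was counted. A start of some transcript of a protein-coding gene lay within 1 kb of 510 members (34.2%, 95% Wilson interval 31.8 to 36.6), although the gene itself began farther away. A further 169 members lay within 1 kb of a start of another annotated transcript, such as a noncoding RNA, so that 679 (45.5%) had a start of some kind and 813 (54.5%) had none. The share with a coding transcript start was 22.3% in the other strong distal regions and 17.5% in the constitutive weaker distal regions. All such intervals allow for counting error alone and treat regions as if each were independent.

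The 8 members of highest level illustrate this. Only 1 of them, the region 46357 bp upstream of Tnfaip3, had no annotated start within 1 kb. The highest of all lay in Ppp2r3d, which encodes a regulatory subunit of protein phosphatase 2A, at chr9:124422378-124426028 (3651 bp), 50870 bp from the gene's start but at the start of another of its transcripts. It held 337 and 378 CPM in BALB/c iNKT1, 360 and 357 in SKG iNKT1, 265, 289 and 312 in BALB/c iNKT2, and 312, 320 and 330 in SKG iNKT2. With TMM factors, all BALB/c iNKT2 libraries lay below both BALB/c iNKT1 libraries, and the SKG iNKT2 libraries below both SKG iNKT1 libraries. These factors were 0.893 to 0.921 in the iNKT1 libraries and 0.984 to 1.189 in the iNKT2 libraries. With library totals neither order holds. The group means ran from 289 ± 23.5 (SD, n = 3) to 359 ± 2.50 (SD, n = 2), a ratio of 1.24.

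Most of the others of highest level lay within 1 kb of a coding transcript start. At Slc39a10, a zinc importer, the region in an untranslated exon had a mean level of 265 CPM over the 4 group means, and its group means ran from 242 ± 57.4 (SD, n = 3) in BALB/c iNKT2 to 292 ± 2.74 (SD, n = 2) in SKG iNKT1. The intronic region of Kat6b, a histone acetyltransferase, had a level of 246 CPM. Nr3c1, the glucocorticoid receptor, had 195 CPM and Pnpla8, a phospholipase of mitochondria and peroxisomes, had 190 CPM. A region in an exon of the noncoding gene Gm7008, 22574 bp upstream of Lsmem1, had 263 CPM. Levels are per region, and wider regions collect more insertions.

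Members with no annotated start had lower levels on the whole. Their median level was 36.3 CPM (interquartile range 28.5 to 50), against 47.3 in members with a coding transcript start and 46.3 in those with another start. Per kb of width the 3 medians were closer, at 55.4, 58.9 and 58.9 CPM per kb, since the regions at starts were wider (medians 698, 840 and 859 bp). Over all members the median level was 40.0 CPM (21 to 331) and the median width 757 bp, where the median of all regions was 343 bp.

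Among members with no start, the region at Tnfaip3 was the highest. Tnfaip3 encodes A20, an inhibitor of NF-kB signalling. The region, chr10:19062014-19063572, is intergenic and held 201 and 248 CPM in BALB/c iNKT1, 221 and 229 in SKG iNKT1, 146, 180 and 177 in BALB/c iNKT2 and 190, 245 and 272 in SKG iNKT2. With TMM factors the BALB/c iNKT2 libraries were the 3 lowest of the 10, without overlap with the other groups. With library totals they overlap with BALB/c iNKT1. The next, 106097 bp upstream of Nabp1 in an intron of a noncoding gene, had 164 CPM. It was followed by an intron of Clec11a (131 CPM), an intron of 4930453N24Rik (122), an intron of Dthd1 (120) and a region 1088 bp upstream of Nr4a3 (119), which encodes a nuclear receptor induced by T cell receptor signals.

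**Figure D1:**
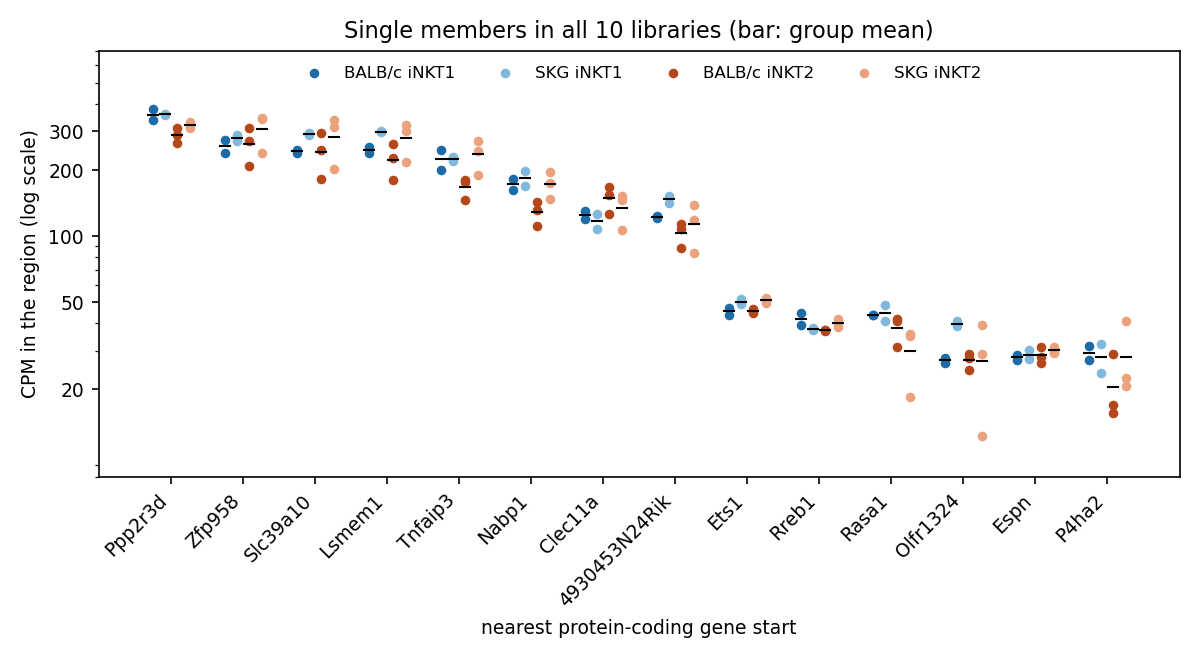
CPM (log scale) of 14 members in each of the 10 libraries, coloured by group, with a bar at each group mean. The 8 on the left are members of high level (122 to 331 CPM); those on the right include the least variable (Espn, Ets1, Rreb1) and the most variable over libraries (Olfr1324, Rasa1, P4ha2), where single libraries stand apart.

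The composition of the sequence followed the annotated starts. The ratio of observed to expected CpG was 0.6 or more, a usual mark of CpG islands, in 555 members (37.2%, 34.8 to 39.7), in 86.3% of the constitutive strong promoters, in 21.8% of the other strong distal regions and in 18.2% of the constitutive weaker ones. Within the members it was 66.1% (337 of 510) at coding transcript starts, 47.3% (80 of 169) at other starts, and where no start was annotated it was 138 of 813 (14.6% to 19.7%). Regions with no start in the other 2 distal classes gave 8.83% (7.36 to 10.6) among those that varied and 11.3% (10.1 to 12.6) among the weaker ones. The median GC content was 63.0% in members at coding transcript starts and 49.3% in those with no start.

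In constitutive regions both shares were higher at higher levels. Constitutive distal regions whose lowest mean was 20 to under 30 CPM (n = 562) had a CpG ratio of 0.6 or more in 23.7% and a start of any transcript within 1 kb in 33.6%. At 60 CPM or more (n = 259) the shares were 64.5% and 65.6%. In distal regions that varied by 1.5-fold or more they were 17.9% and 29.3% at 20 to under 30 CPM, 25.2% and 33.8% at 30 to under 40, 21.7% and 27.3% at 40 to under 60, and 40.2% and 50.4% at 60 CPM or more, so they did not rise at each step. Among constitutive regions with no start at all, the CpG share was 14.5% at 20 to under 30 CPM, 17.9% of 195 at 30 to under 40, 16.0% of 156 at 40 to under 60 and 27% of 89 at 60 CPM or more.

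**Figure D2:**
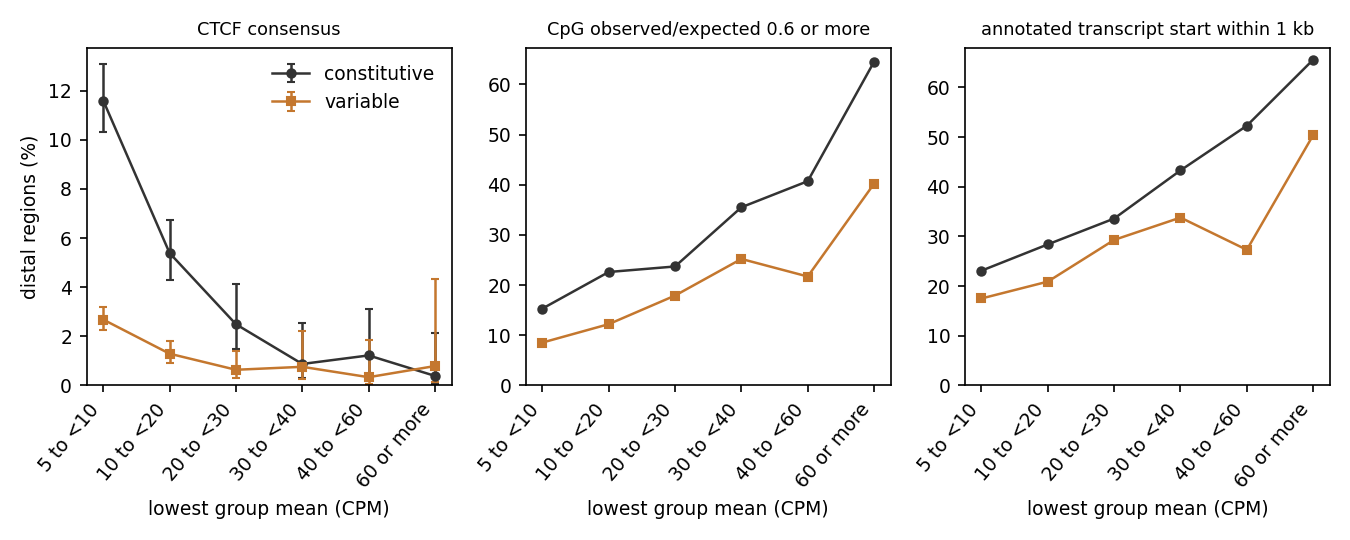
Share of distal regions (%) with an exact CTCF consensus or a CpG observed to expected ratio of 0.6 or more, each in the central 300 bases. The last panel is the share with an annotated transcript start within 1 kb, and all are by the lowest group mean in CPM. Black circles are regions with a ratio of means under 1.5 and orange squares regions of 1.5 or more; bars in the first panel are 95% Wilson intervals. The CTCF share of constitutive regions falls from 11.6% at 5 to under 10 CPM to 0.386% at 60 CPM or more, while the other 2 shares of constitutive regions rise.

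The CTCF consensus was rare in members. An exact match lay in the central 300 bases of 22 members (1.47%, 0.976 to 2.22), of 0.622% (0.348 to 1.11) of the other strong distal regions, of 0.486% of the constitutive strong promoters and of 9.09% (8.15 to 10.1) of the constitutive weaker distal regions. Over all 94823 regions the share was 5.03%. Restricted to regions with no annotated start, it was 1.72% (1.03 to 2.87) in members, 0.495% in the other strong distal regions and 10.6% (9.41 to 11.9) in the weaker ones. The order of the 3 distal classes was the same when 1 mismatch was allowed (5.63%, 4.97% and 25.4%), and when the whole region was searched (3.42%, 1.98% and 10.2%). The intervals of members and of the other strong distal regions overlapped in each of these searches, and those of the weaker regions lay above both. They did not overlap when whole regions with no annotated start were searched. There the shares were 3.81% (2.70 to 5.36) in members and 1.73% (1.14 to 2.63) in the other strong distal regions.

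Along the level, most of the decline in constitutive distal regions lay below 30 CPM, as the plot of shares by level shows. It was 11.6% of 1912 regions at a lowest mean of 5 to under 10 CPM, 5.39% of 1299 at 10 to under 20, 2.49% of 562 at 20 to under 30, 0.872% of 344 at 30 to under 40, 1.22% of 327 at 40 to under 60 and 0.386% (1 region) of 259 at 60 CPM or more. The median width rose over the same steps from 365 to 1084 bp, so the central window covers less of a strong region. With the whole region searched, the share was 12.3% in the lowest step, and the 4 steps of members gave 3.91%, 2.91%, 3.67% and 2.70%, with little order among them. The matches also lay less centrally. Their median distance from the centre was 68.5 bases in members (24 matches, 10 within 50 bases) and 23 bases in the weaker regions (298 matches, 236 within 50 bases).

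Among the 5 members of highest level with a CTCF match, all had no annotated start within 1 kb. The first, 8703 bp upstream of 4932438A13Rik on chromosome 3, held 82.9 and 82.9 CPM in BALB/c iNKT1, 84.9 and 97.3 in SKG iNKT1, 59.9, 66.5 and 63.7 in BALB/c iNKT2 and 69.7, 86.7 and 89.3 in SKG iNKT2. The BALB/c iNKT2 libraries were the 3 lowest. Then followed the regions at 2410004P03Rik (61.4 CPM), Oxct1 (55.9), Stard10 (50.7) and Rnase12 (45.9). At Stard10 the group means were 52.3 ± 0.840 (SD, n = 2), 53.1 ± 1.33 (SD, n = 2), 44.0 ± 1.57 (SD, n = 3) and 53.5 ± 0.111 (SD, n = 3) in BALB/c iNKT1, SKG iNKT1, BALB/c iNKT2 and SKG iNKT2.

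For the other strings, members with no annotated start are set beside the like regions of the other classes, because promoters differ in composition. The ETS string was found in 14.5% (12.3 to 17.1) of these members, in 14.3% of the other strong distal regions, in 311 of the 2401 weaker ones and in 11.9% of all regions, shares whose intervals overlap among the 3 distal classes. The RUNX string was found in 16.9% (14.4 to 19.6) of members with no start, in 22.9% (20.7 to 25.4) of the other strong distal regions and in 13.1% (11.8 to 14.5) of the weaker ones. The TCF/LEF string (ATCAAAG) was in 7.38%, 7.01% and 5.54%, and the AP-1 string in 12.2%, 14.4% and 10.5%.

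The T-box string (AGGTGTGA) was in 0.738% (0.339 to 1.60) of members with no start, in 3.38% (2.50 to 4.56) of the other strong distal regions and in 0.958% (0.639 to 1.43) of the weaker constitutive ones. Over the whole region rather than the central window the shares were 1.97%, 6.35% and 1.96%. The share in all regions was 1.91% in the central window. NFAT strings were in 8.86%, 6.19% and 6.12%. These counts were not tested against each other.

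Members at coding transcript starts had another profile. The SP/KLF string (GGGCGGG) was in 37.8% (33.7 to 42.1) of them, in 11.9% of members with no start and in 43.9% of the constitutive strong promoters, against 11.8% of all regions. The RUNX string was in 3.92% of members at coding transcript starts, close to the 2.59% of the promoters, and the TCF/LEF string in 1.18%. The E-box was in 17.4% of members and 17.4% of all regions. The remaining strings, EGR (GCGTGGG), NF-kB (GGGANTTCC), YY1 (AAGATGGC), NRF1 (GCGCATGCG), NFY, CRE (TGACGTCA), ZNF143, ROR and the GATA factors, whose string is AGATAAG, were in 1.21% to 5.56% of members. Of these, CRE (2.14% against 0.904% of all regions), NRF1 (1.21% against 0.524%), NFY (5.56% against 3.65%) and EGR (5.50% against 3.68%) were higher in members. The others were lower in members, but the share of all regions lay within the members' interval for each. Over the whole region each of them was higher in members, such as NF-kB (4.09% against 2.27%) and GATA (8.91% against 5.70%). Members are wider than most regions, which gives a string more room there. All strings were searched on both strands.

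**Figure D3:**
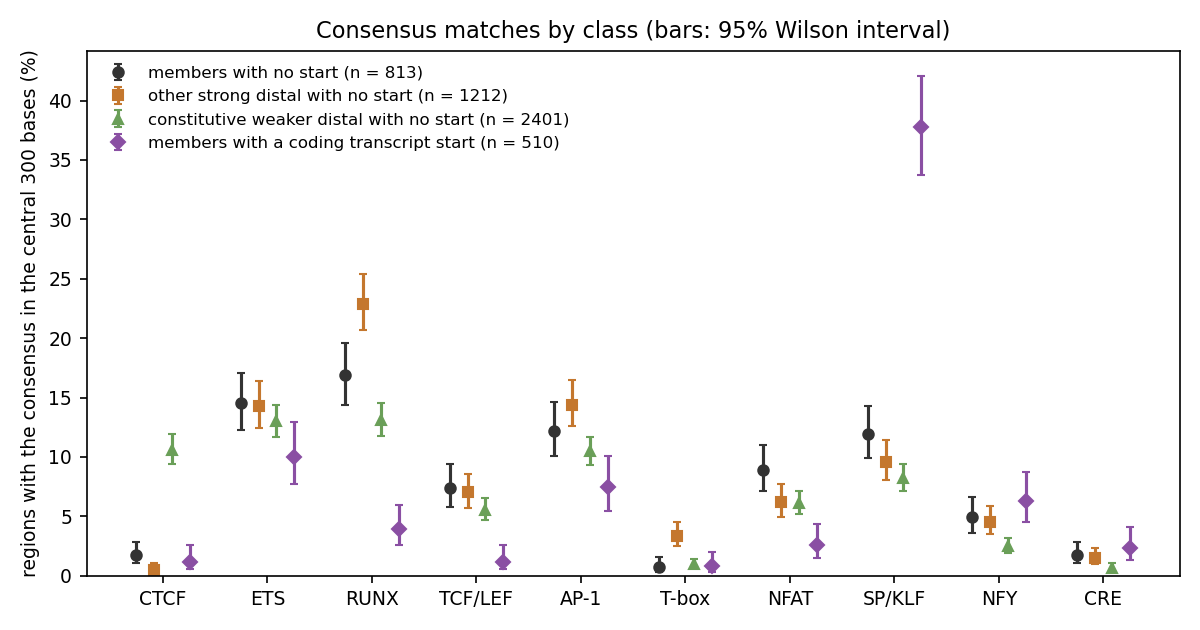
Share of regions (%) with an exact match to each of 10 consensus strings in the central 300 bases, with 95% Wilson intervals. Members with no annotated start (n = 813), at the black circles, stand at 16.9% for RUNX and 0.738% for T-box, against 22.9% and 3.38% of the other strong distal regions with no start (n = 1212), while members at coding transcript starts (n = 510) stand at 37.8% for SP/KLF.

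At their centres, 660 members (44.2%) lay in introns of protein-coding genes, 408 (27.3%) were intergenic, 174 (11.7%) lay in annotated untranslated exons, 125 (8.38%) in noncoding exons, 70 (4.69%) in introns of noncoding genes and 55 (3.69%) in coding exons. Over all regions the shares were 47.2%, 32.7%, 7.55%, 4.51%, 4.62% and 3.48%. The median distance to the nearest protein-coding gene start was 19452 bp, and 147 members (9.85%) lay over 100 kb away. The 4 farthest were 973875 bp from Sel1l, 799177 bp from Diaph2, 518995 bp from Maf (inside Wwox) and 504542 bp from Rab3c (inside Pde4d), with levels of 23.3, 68.8, 34.8 and 25 CPM.

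Members were often near each other. Another member lay within 1 kb of 159 (10.7%) and within 100 kb of 637 (42.7%), so neighbouring members are not independent. The nearest protein-coding starts were those of 1182 genes, of which 950 had 1 member and 49 had 3 or more. Btg1, an inhibitor of proliferation, and Rab3c had 6 each, and among the genes with 4 were Jak1, the kinase of cytokine receptors, Cblb, a ubiquitin ligase that restrains T cell activation, Prkcq, the protein kinase C of the T cell receptor pathway, and Pag1, a membrane adaptor. Nearness to a start does not show that a region acts on that gene.

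Of 37 T lineage genes that are annotated as protein-coding, 12 (32.4%) were the nearest start of a member, with 19 members in all. Among all 16217 protein-coding genes that were nearest to any region, 7.29% had a member. The T lineage genes had many regions, and their members were 1.56% of their 1219 regions, against 1.57% over all regions, and 33.9% of their 56 strong distal regions, against 45.8%. At Ikzf1, which encodes the lymphoid factor Ikaros, all 3 strong distal regions were members, and the strongest lay in an intron 40265 bp from the start. It held 67.9 and 63.7 CPM in BALB/c iNKT1, 57.2 and 58.4 in SKG iNKT1, 60.3, 81.5 and 75.7 in BALB/c iNKT2 and 72.2, 83.5 and 89.9 in SKG iNKT2. The 2 SKG iNKT1 libraries were the lowest of the 10.

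Other members of the T lineage list lay at receptors, kinases and factors. Cd28, the costimulatory receptor, had 2, with levels of 70.8 and 55.9 CPM, and Il7r, the interleukin-7 receptor, had 1, an intergenic region 44326 bp upstream at 69.4 CPM. The members at Ptprc (CD45) had 58.5 and 25.8 CPM, and those at Cd247, the zeta chain of the T cell receptor complex, 55.5 and 35.9. Satb1, a chromatin organiser of thymocytes, had 2, at 89.6 CPM at a coding transcript start inside the gene and 22.6 CPM upstream. Members at Lef1 (56.2 CPM), Lck (27.8) and Fyn (36.9) lay within 1 kb of a coding transcript start, whereas those at Runx1 (40.1 and 25), Lcp2 (27.4) and Ets1 (48.0) had none. No member lay nearest to Cd3e, Cd4, Zap70, Gata3, Tcf7 or Bcl11b. Of these genes, only Tcf7 (4) and Bcl11b (1) had any strong distal region.

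Of 22 iNKT subset genes, 8 (36.4%) had a member, against 7.29% of all genes nearest to any region. These genes had many regions, and their 13 members were 2.69% of their 483 regions, against 1.57% over all regions. The members were 56.5% of their 23 strong distal regions, against 45.8% over all genes. However, 4 of the 13 lay near each other at Klrb1c alone. Klrb1c, which encodes the receptor NK1.1, had 4 strong distal regions and all were members, at 64.0, 61.4, 44.9 and 36.5 CPM. Ifng, the gene of interferon-gamma, had 2 and both were members. The stronger, 21398 bp upstream at chr10:118418721-118419648, held 80.3 and 83.4 CPM in BALB/c iNKT1, 79.7 and 84.4 in SKG iNKT1, 58.6, 64.1 and 64.5 in BALB/c iNKT2 and 78.9, 83.2 and 94.5 in SKG iNKT2. The BALB/c iNKT2 libraries were the lowest, without overlap, and the other 3 groups overlapped.

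The region at the start of Ifng itself was no member. Its means were 61.3 and 72.6 CPM in BALB/c and SKG iNKT1 and 8.72 and 8.53 CPM in BALB/c and SKG iNKT2. Zbtb16, which encodes PLZF, the factor that iNKT cells need, had 1 member, an intronic region 40687 bp from the start at 34.8 CPM. The members at Bcl2 (40.9 CPM), Egr2 (47.2), Nr4a1 (44.1), Il6ra (59.4) and Fasl (49.8 and 32.6) made up the rest. Tbx21, Il4 and Cxcr3 had no strong distal region at all. Of 11 chromosome architecture genes, Yy1 (48.3 CPM, 26848 bp upstream) and Pds5a (26.7 CPM) had a member.

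As a check of the labelled cell type, regions were found at the starts of all 6 T cell markers and of Zbtb16, whose means ran from 26.3 to 33.6 CPM. The levels of Cd2 and Thy1 were low in BALB/c iNKT2, at 2.78 and 3.02 CPM. Of 14 markers of B cells, myeloid cells, erythroid cells and epithelium reported here, 9 had no region at the start: Cd79a, Ms4a1, Pax5, Lyz2, Csf1r, Itgam, Gata1, Krt8 and Foxn1. The other 5 were Cd79b (0.179 to 4.62 CPM), Cd14 (3.77 to 4.72), Epcam (4.45 to 8.84), Spi1 (6.66 to 16.6) and Klf1 (23.7 to 28.6), and their part in the members' levels was not tested. Of the iNKT2 markers, Il17rb had no region at its start.

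Insertions in members made up 6.82% to 8.0% of those in all regions of a library, whose totals ran from 14988590 to 36342635. The smallest count of any member in any library was 181 insertions, and the median count per member ran from 646 to 1420 over the libraries. The highest of the 10 libraries exceeded the lowest by a median of 1.59-fold (1.18 to 3.34), and by less than 2-fold in 1452 members (97.3%). In the other strong distal regions the median was 2.11-fold. Within groups the median coefficient of variation of members was 4.21% in BALB/c iNKT1, 4.62% in SKG iNKT1, 11.1% in BALB/c iNKT2 and 12.5% in SKG iNKT2. In the other strong distal regions it was 4.26%, 6.23%, 9.39% and 10.5%, so within the iNKT2 groups the members' median was the higher with TMM factors. The coefficient was not computed with library totals.

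The extremes of members, taken with TMM factors, were spread unevenly over libraries. BALB/c iNKT2 replicate 1 had the lowest value of the 10 in 766 members (51.3%), and its median log2 difference from the members' level was -0.306. Its TMM factor was also the highest, 1.189, against 0.893 to 1.102 in the other libraries. SKG iNKT2 replicate 1 stood at -0.149 and the other 2 SKG iNKT2 libraries at 0.111 and 0.115. By the same scaling, BALB/c iNKT2 was the lowest group in 933 members (62.5%). SKG iNKT1 was the highest in 595 (39.9%) and SKG iNKT2 in 488 (32.7%). These ranks were not counted with library totals, which turned the members' median log2 difference of iNKT2 over iNKT1 in BALB/c from -0.194 to 0.08. Without BALB/c iNKT2 replicate 1 the rule kept 1505 regions, of which 1394 were members.

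**Figure D4:**
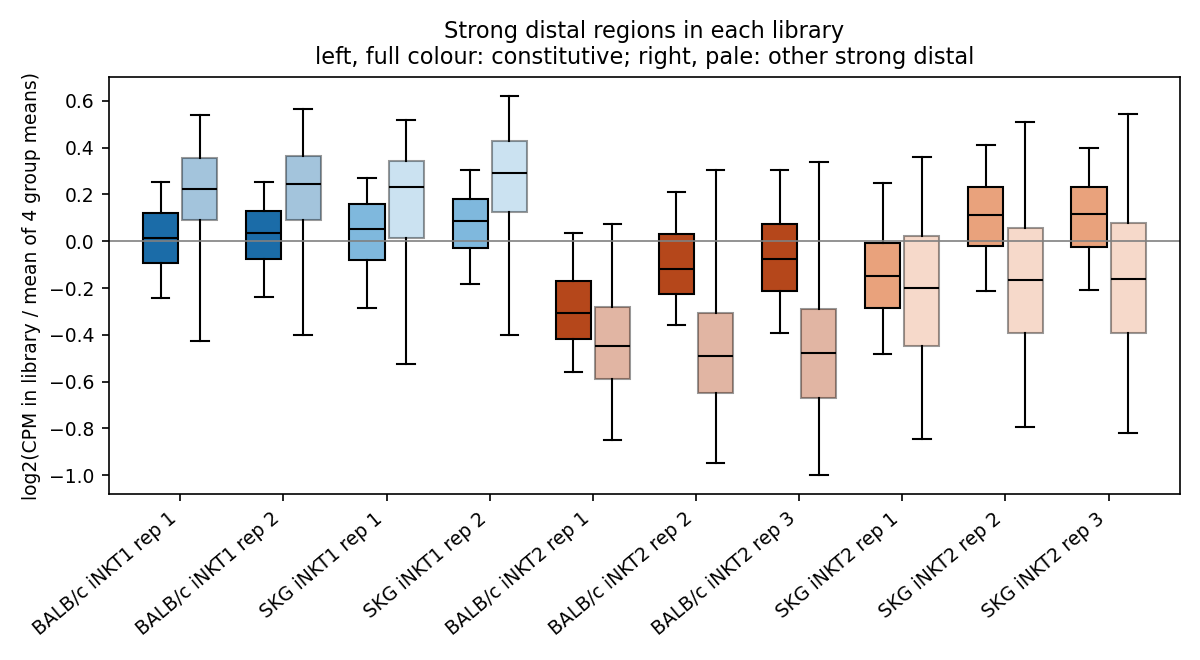
Log2 of CPM in each library over the mean of the 4 group means, for members (full colour, n = 1492) and for the other strong distal regions (pale, n = 1769). Boxes span the quartiles, with a line at the median, and whiskers run from percentile 5 to 95. The median of members lies between -0.306 (BALB/c iNKT2 replicate 1) and 0.115 (SKG iNKT2 replicate 3), while the other strong distal regions are higher in all 4 iNKT1 libraries and lower in all 6 iNKT2 libraries.

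A library held out of the rule gives a level that the rule did not use. The other libraries of its group still helped to choose the regions. Each library was held out in turn and the rule was applied to the other 9, which chose 1412 to 1535 regions. The held-out library was within 1.5-fold of the mean of the group means in 91.9% (BALB/c iNKT2 replicate 1) to 99.9% of them, with a median of 99.0%. In strong distal regions that the 9 libraries placed over the ratio limit, the shares ran from 63.7% to 95.2%, with a median of 83.7%. The ratio limit itself places these regions farther from the mean, so nothing is read from the gap. With library totals in place of TMM factors, the held-out shares ran from 94.6% to 99.9%, and that of BALB/c iNKT2 replicate 1 was 99.4%. The TMM factors themselves came from all 10 libraries.

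The least variable member lay 1376 bp upstream of Espn. It held 28.8 and 27.3 CPM in BALB/c iNKT1, 30.1 and 27.5 in SKG iNKT1, 26.5, 28.1 and 31.2 in BALB/c iNKT2 and 29.3, 29.7 and 31.3 in SKG iNKT2, a range of 1.18-fold, and the groups overlapped. An intronic region of Ets1, the ETS factor of lymphocytes, 104309 bp from the start, ranged over 1.2-fold, from 43.6 to 52.4 CPM. Regions at Rreb1, 1700008O03Rik and Cflar, the inhibitor of caspase-8, followed. The most variable member lay in an intron of Firre, a noncoding gene of the X chromosome whose nearest protein-coding start is Olfr1324. It held 29.1, 39.4 and 12.2 CPM in the 3 SKG iNKT2 libraries and 24.4 to 40.8 in the others, so SKG iNKT2 replicate 3 alone set its range of 3.34-fold.

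At P4ha2, the BALB/c iNKT2 libraries held 29.0, 15.6 and 16.9 CPM and the SKG iNKT2 libraries 40.9, 20.7 and 22.5, with replicate 1 the highest in both. The group means were 20.5 ± 7.41 and 28.0 ± 11.2 (SD, n = 3 each), and SKG was the higher in each of the 3 same-numbered pairs. At Rasa1, SKG iNKT2 replicate 1 held 18.5 CPM where the other 9 libraries held 31.2 to 48.4. Regions at 2610044O15Rik8 and Sfi1 completed the 5 of widest range.

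Values lay close on both sides of each limit of the rule. Just inside the level limit, the lowest group means were 20.04 CPM at Map3k1 and 20.05 at Nt5e, and just outside it was 19.96 at Rps6ka3. The ratios nearest to the limit were 1.499 at Tor1aip1 and 1.4996 at Lin54 inside, and 1.5001 at Vps26a and 1.5001 at a second region of Il7r outside. Just inside the distance limit were regions 1001 bp from 4930430F08Rik and Hpcal1, and just outside regions 991 bp from Kcnq5 and 986 bp from Hist1h1b. No member held a 24-base word of the mitochondrial genome, which 4 of all regions did.

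Since the rule limits the differences between group means, calls between groups among members are counted only to describe what the limit leaves. A call is an adjusted p under 0.01 in edgeR's quasi-likelihood test, over all regions and without a fold threshold. Between the subsets of BALB/c mice, 175 members (11.7%) were called, against 49.1% of all regions. With TMM factors all 175 were lower in iNKT2, but with library totals the called members were all higher. Between the subsets of SKG mice, 42 were called, against 35.9% of all regions, 17 higher and 25 lower in iNKT2, a balance that turned with library totals (160 of 161 higher, against 35.7% of all regions called). Between SKG iNKT1 and BALB/c iNKT1 edgeR called 0 members, where 2.08% of all regions were called. An unadjusted p under 0.05 was reached by 87 of the 1492 members there. The share of all regions at that limit was not computed, so nothing is read from the 87. DESeq2 called 0 members, against 3.19% of all regions. An edgeR fit of only the 2 iNKT1 groups called 54 (38 higher and 16 lower in SKG), against 7.23% of all regions.

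Between the genotypes in iNKT2, 39 members were called, against 14.2% of all regions, and all 39 were higher in SKG, but with library totals only 5 of 22 were. With a replicate block, which treats same-numbered libraries as pairs, the number was 130 (123 higher and 7 lower), against 17.7% of all regions. In a fit with a replicate block and only the 2 iNKT2 groups, added after seeing the data, it was 344 (323 higher and 21 lower), against 24.4%. Leaving out 1 library gave 1 call without BALB/c iNKT2 replicate 2, 3 and 4 without replicate 3 of BALB/c and of SKG iNKT2, 12 without SKG iNKT2 replicate 2 and 170 without SKG iNKT2 replicate 1. It gave 12 and 16 without BALB/c iNKT1 replicates 1 and 2, 17 without either SKG iNKT1 library and 39 without BALB/c iNKT2 replicate 1. The share of all regions called was 15.1% in the fit with 170 calls and 9.12% to 13.4% in the other 9. For the difference between the genotype effects of the subsets, the edgeR interaction called 0 members, against 0.925% of all regions. An unadjusted p under 0.05 was reached by 186 of the 1492 members, and the share of all regions at that limit was not computed. The comparisons share groups, and nothing about the members is read from these counts.

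The directions of these calls depended on the scaling. The median log2 difference of iNKT2 over iNKT1 in BALB/c was -0.194 in members and 0.06 in all regions with TMM factors, and 0.08 and 0.34 with library totals, where 123 members were called, against 46.1% of all regions. Between SKG iNKT2 and BALB/c iNKT2 the medians were 0.195 in members and 0.01 in all regions with TMM factors and 0.06 and -0.12 with library totals, where 22 members were called, against 12.7% of all regions. In both scalings members lay below the median of all regions between the BALB/c subsets and above it between the iNKT2 genotypes. With TMM factors the other strong distal regions lay farther from that median the same way, at -0.701 and 0.287. The shift was thus not particular to members. The median standard error of a member's log2 difference was 0.132 to 0.163 over the 4 comparisons.

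The share of strong distal regions that met the ratio limit differed between chromosomes. It was 24.5% on chromosome 11 (36 of 147) and 31.7% on chromosome 9 (45 of 142), and between 35.4% (chromosome 15) and 64.9% (chromosome X, 48 of 74) on the others. The constitutive share of strong promoters followed the same extremes, at 33.7% of 392 on chromosome 11 and 88.7% of 177 on chromosome X. Strong distal regions of chromosome 11 had a median log2 difference of iNKT2 over iNKT1 in BALB/c of -0.714, those of chromosome 9 of -0.559 and those of the other chromosomes of -0.509 to -0.228. Between SKG iNKT2 and SKG iNKT1 the median on chromosome 11 was -0.340, against -0.305 to -0.104 elsewhere.

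The same medians were also taken by GC content. With strong distal regions split by GC content into 4 parts of like size, the median between the BALB/c subsets ran from -0.449 to -0.387, and the share of members from 40.5% in the lowest part to 55.9% in the highest. Strong distal regions of chromosome 11 had a median GC content of 53.3%, within the 49.7% to 55.2% of all chromosomes. Each GC part holds more regions than any chromosome, so the spread over parts cannot be set against that over chromosomes. Whether GC content plays a part in the chromosome differences was not tested. The chromosome values use the means that chose the members and were not tested.

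**Figure D5:**
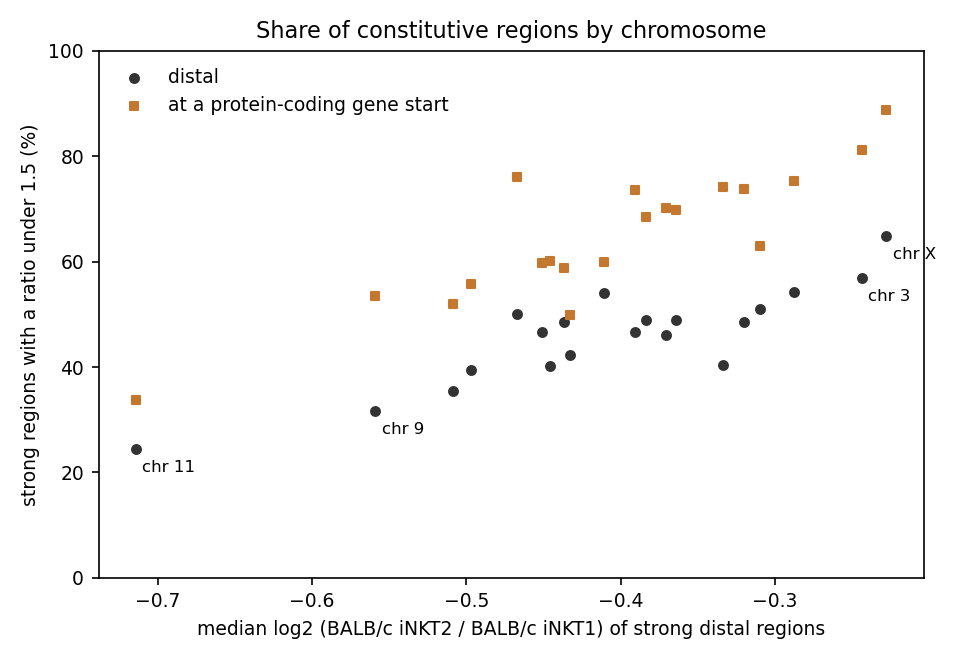
Share of strong regions (%) whose highest group mean is under 1.5 times the lowest, against the median log2 ratio of BALB/c iNKT2 to BALB/c iNKT1 in strong distal regions, with 1 point per chromosome. Black circles are distal regions and orange squares regions at protein-coding gene starts. Chromosome 11 stands apart at -0.714, with 24.5% of distal and 33.7% of promoter regions under the limit.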

How the data were processed

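Per the published methods, the authors mapped reads to mm10 with Bowtie 1.0, kept uniquely mapped pairs, removed mitochondrial and duplicate reads, called summits with MACS2 on subnucleosomal fragments, widened them to a uniform size, merged them over replicates and counted insertions per region. Many deposited regions are narrower than that size (median 343 bp), which the sources used here do not explain. Their starts were read as 0-based. The deposited table was read as raw insertion counts, because it held whole numbers with unequal column totals. Its name speaks of normalized counts, so this reading is an assumption. Totals cover listed regions only, and full depth is not known. Genes came from GENCODE M21, sequence from RefSeq GRCm38.p6. CPM used TMM factors over all rows. A level is the mean of the 4 group means. Tests were edgeR 4.0.16 quasi-likelihood fits (R 4.3.3) of 4 group means to all 10 libraries with Benjamini-Hochberg adjustment, and DESeq2 1.42.0 was an alternative. The fit was tested on simulated counts. P-values measure only the spread between these libraries, which may be technical.

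Same-numbered BALB/c and SKG iNKT2 libraries deviated together (r = 0.446, 0.136 and 0.156 over regions). Their numbers were taken as pairs by a rule of r over 0.1 in every pair. However, SKG replicate 2 went more closely with BALB/c replicate 3 (r = 0.207). Deviations from a group mean cancel out within the group, so a match of replicate 1 alone makes r positive on average among replicates 2 and 3. The rule therefore cannot tell whether replicates 2 and 3 are pairs, and the replicate block assumes it. In the other comparisons r was -0.0179 to 0.0943, and these were not paired. The members, the gene lists and the 18 strings were chosen with earlier results of these data known. Members were named by fixed rules: the 8 highest levels, the 5 lowest and 5 highest ranges over libraries, the 5 highest with a CTCF match, the 4 farthest, the 2 on each side of each limit, and those at listed genes. Values were to be given for 15 of the last, and those of the remaining 19 were added. The highest with no start, the genes with several members and the comparison of chromosomes were chosen after their values were seen. Trac, Trbc1 and Trbc2 are not annotated as protein-coding and Znf143 was not matched, so these were not used. A few items covered by these rules and lists are not reported here.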

Additional observations from a re-analysis of the deposited data

How the results depend on the processing

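The number of members followed the limits: 2791 at a level of 10 CPM, 586 at 40 CPM, 445 at a stricter ratio limit and 2693 at a ratio under 2. Counting starts of every transcript of protein-coding genes left 982, and of genes of every type, added after seeing the data, 813. Library totals gave 2039 regions, which held 1256 of the members, and DESeq2 size factors gave 1506, which held 1446. Without each library in turn there were 1403 to 1579 members, a CTCF share of 1.40% to 1.73% and a share in introns of coding or noncoding genes of 47.9% to 50.7% (48.9% with all). The CTCF share was 3.30% at 10 CPM, 0.853% at 40 CPM, 2.96% at 40 CPM per kb, 5.63% with 1 mismatch and 3.42% over whole regions. The intron share moved outside its counting interval under no alternative run, and the held-out share was 99.3% with library totals and 100% for 2-fold.

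In parentheses after each number of called members is the share of all regions called in the same fit. Calls between the BALB/c subsets numbered 123 (46.1%) with library totals, which reversed the direction. Without regions under the lower quartile of counts they numbered 38 (45.6%), a near-even split of 20 higher and 18 lower. They numbered 306 (49.9%) with a replicate block and 409 (61.2%) at an adjusted p under 0.05. Between the SKG subsets they numbered 161 (35.7%) with library totals and 61 (38.9%) with the filter, both reversed, 14 (32.7%) in a fit of only the groups compared, 78 (36.9%) with a replicate block, 65 (37.2%) by DESeq2 and 195 (49.5%) at 0.05. Between the iNKT1 genotypes they numbered 54 (7.23%) in a fit of only the groups compared and 1 (5.05%) at 0.05. Between the iNKT2 genotypes they numbered 22 (12.7%) with library totals, reversed, 19 (11.9%) with the filter, 2 (11.3%) in a fit of only the groups compared, 130 (17.7%) with a replicate block and 344 (24.4%) with it in the iNKT2 groups alone, 65 (16.0%) by DESeq2 and 216 (25.4%) at 0.05.

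Leaving out 1 library gave 8 to 290, 5 to 107, 0 to 0 and 1 to 170 calls in the 4 comparisons. Without BALB/c iNKT1 replicate 1 or 2, calls between the BALB/c subsets fell to 8 (31.6%) and 11 (35.7%), without BALB/c iNKT2 replicate 2 or 3 to 25 (40.1%) and 55 (42.5%) and without SKG iNKT2 replicate 2 to 110 (48.7%), and without SKG iNKT2 replicate 1 they rose to 290 (53.0%). Between the SKG subsets, calls numbered 5 (22.7%) without SKG iNKT1 replicate 1, 79 (38.9%) without BALB/c iNKT2 replicate 1, 21 (33.8%) without BALB/c iNKT1 replicate 2, and 22 (32.1%) and 13 (30.7%) without SKG iNKT2 replicates 2 and 3. Without SKG iNKT1 replicate 2 or SKG iNKT2 replicate 1, more members were higher than lower in SKG iNKT2, with 8 (24.2%) and 107 (37.1%) calls. A lone library left in a group was assumed to vary like the others. The filter recomputed the TMM factors, and the cause was not tested.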
